A study of Mus musculus with 16 samples.

Results

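Cxcl9, Cxcl10, Cxcl11 and Cxcl16 encode CXC chemokines, small secreted or membrane-anchored proteins that attract white blood cells. These 4 genes were chosen by name from the 55487 genes of the count table and were described in every sample. Cxcl10 and Cxcl16 were among the 12372 genes with a normalized level (counts per 1000000, CPM) above 1 in at least 2 samples, which were tested, while Cxcl9 and Cxcl11 did not reach this level.

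The study treated bone marrow-derived macrophages (BMDMs), macrophages grown in culture from the bone marrow of 8-week-old wild-type (WT) Balb/c mice, with medium conditioned by 4T1 cells, a mouse mammary tumor cell line. It asked how soluble tumor factors, ruxolitinib (Rux), which inhibits JAK1/2, and IKK-16, which inhibits the IKK kinases upstream of NF-κB, change gene expression. RNA-sequencing of 16 samples gave between 18449388 and 46215853 counts per sample. The cells of all groups were of the same strain and genotype, and the study serum starved them before treatment and gave ruxolitinib, where used with CM, from that step on. The 6 groups were medium without tumor factors (DMEM, 2 samples), DMEM with ruxolitinib (DMEM + Rux, 3 samples, concentration not given in the labels), conditioned medium (CM, 3 samples), CM with 0.5 μM ruxolitinib (CM + Rux, 3 samples, with 4 h in their titles), CM with both ruxolitinib at 0.5 μM and IKK-16 at 0.8 μM (CM + Rux + IKK-16, 3 samples), and CM with ruxolitinib with 2 h in their titles (CM + Rux 2 h, 2 samples). The CM + Rux 2 h samples also had ruxolitinib at 0.5 μM. What the 2 h refers to is not stated in the sources used here. The study's methods give 4 h of treatment for isolating RNA, while the titles of the CM samples give no time. If 2 h is a treatment time and the CM samples had the 4 h of the methods, the 2 groups differ in time as well as in ruxolitinib. The study describes triplicate samples and repeated experiments, but neither it nor the labels say whether the replicates of a group came from separate mice or cultures, so p-values measure the spread between these samples, which may be technical.

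CXCL9, CXCL10 and CXCL11 share 1 receptor, CXCR3, which is found mainly on activated T cells and NK cells, and they are known as chemokines that interferons induce. Interferons signal through JAK kinases to STAT proteins. STAT proteins bind the GAS element and, in a complex with IRF9, the ISRE element, while NF-κB binds elements of its own in some of the same promoters. CXCL16 differs in form: it is made with a membrane anchor and a scavenger receptor function for oxidized lipoprotein, it is shed by the proteases ADAM10 and ADAM17, and its receptor is CXCR6.

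On GRCm38, Cxcl9 (ENSMUSG00000029417, chr5:92321347-92328079), Cxcl10 (ENSMUSG00000034855, chr5:92346638-92348889) and Cxcl11 (ENSMUSG00000060183, chr5:92359544-92365485) lie side by side on the minus strand within 44139 bases. Cxcl16 (ENSMUSG00000018920, chr11:70453983-70459984) lies elsewhere, also on the minus strand. Art3 overlaps Cxcl10 and Cxcl11 on the other strand, and Zmynd15 overlaps Cxcl16 there, and the counting used strand. Cxcl11 is annotated as a polymorphic pseudogene in GENCODE and as a transcribed pseudogene in RefSeq, both of which describe the reference strain and not Balb/c, so its counts give RNA and not protein.

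The 250 bases before the start of Cxcl9 and Cxcl10 are shown because they are the stretch in which elements for the 2 pathways inhibited in the study can be read. They are RefSeq sequences of GRCm38.p6, written 5′ to 3′ on the minus strand, chr5:92328080-92328329 for Cxcl9 and chr5:92348890-92349139 for Cxcl10. Capitals mark matches to the ISRE (GAAANNGAAA), the GAS (TTCNNNGAA) or the NF-κB consensus, searched on both strands.
Cxcl9: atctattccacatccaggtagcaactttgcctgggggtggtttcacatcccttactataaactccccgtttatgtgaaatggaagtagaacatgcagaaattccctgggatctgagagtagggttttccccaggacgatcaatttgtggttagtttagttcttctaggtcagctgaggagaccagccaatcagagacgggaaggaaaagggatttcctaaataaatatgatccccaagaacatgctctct
Cxcl10: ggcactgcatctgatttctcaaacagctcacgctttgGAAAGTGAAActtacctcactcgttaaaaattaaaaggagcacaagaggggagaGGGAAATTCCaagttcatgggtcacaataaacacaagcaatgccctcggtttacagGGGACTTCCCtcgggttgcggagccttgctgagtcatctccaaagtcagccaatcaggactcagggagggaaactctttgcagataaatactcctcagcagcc
In Cxcl10 the ISRE match GAAAGTGAAA lay 213 to 204 bases before the start, and the NF-κB matches GGGAAATTCC and GGGACTTCCC lay 159 to 150 and 103 to 94 bases before it. The matches do not overlap each other, and the window of Cxcl9 held no full match to any of these patterns. Near matches were not counted. Of 32851 promoter windows of this length, 2.98% held the ISRE letters, 7.02% the GAS letters and 3.90% the NF-κB consensus. A match is a description of the letters and not a measured site. Sequences of Cxcl11 and Cxcl16 were not used here.

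Cxcl10 ranged from 0.185 to 17.0 normalized CPM over the 16 samples. It stood at 17.0 and 15.8 normalized CPM in the 2 DMEM samples and at 0.185, 0.268 and 0.389 CPM in DMEM + Rux. In CM it was 2.28, 14.6 and 4.20 CPM in replicates 1, 2 and 3, so that 1 of 3 CM samples was close to the DMEM samples and the others were well below. CM + Rux samples had 0.432, 3.49 and 1.07 CPM, CM + Rux + IKK-16 samples had 0.412, 1.53 and 0.728 CPM, and the 2 h samples had 0.580 CPM (replicate 2) and 0.234 CPM (replicate 3). Replicate 2 was the highest sample of the CM, CM + Rux, CM + Rux 2 h and CM + Rux + IKK-16 groups, and not of the DMEM or DMEM + Rux groups. In order of the group means (± SD), Cxcl10 was 16.4 ± 0.854 CPM in DMEM (n = 2), 7.01 ± 6.61 in CM (n = 3), 1.66 ± 1.61 in CM + Rux (n = 3), 0.890 ± 0.576 in CM + Rux + IKK-16 (n = 3), 0.407 ± 0.245 in CM + Rux 2 h (n = 2) and 0.280 ± 0.103 in DMEM + Rux (n = 3). The samples of every pair of neighbours in this order overlapped, except DMEM and CM.

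**Figure D1:**
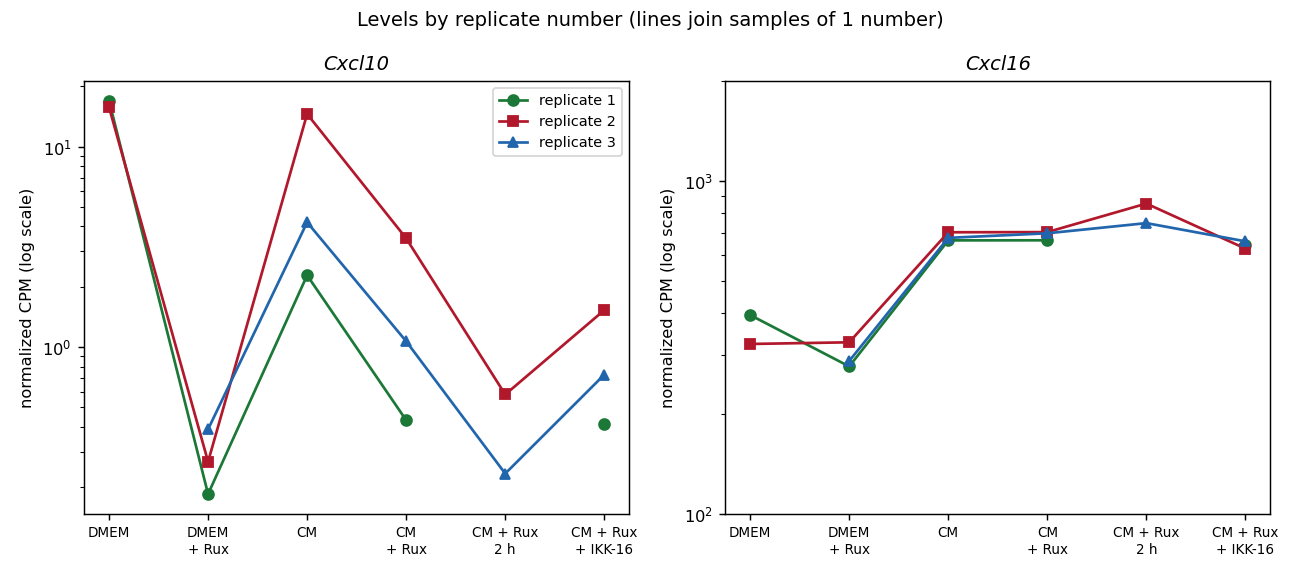
Normalized CPM (log scale) of Cxcl10 and Cxcl16 in each sample, by group on the horizontal axis, with lines joining samples that carry the same replicate number. In the 4 groups with conditioned medium, replicate 2 has the highest Cxcl10 value (14.6 CPM in CM), while Cxcl16 lies within a narrow range in each group.

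Cxcl9 and Cxcl11 were scarce. Cxcl9 had 24 and 10 counts in DMEM (0.709 and 0.409 CPM), 5, 32 and 8 counts in CM (0.278, 0.951 and 0.326 CPM), and 1, 4 and 7 counts in DMEM + Rux (0.0462, 0.0893 and 0.227 CPM). At most 3 counts per sample were found in CM + Rux (0, 1 and 3), CM + Rux 2 h (1 and 2) and CM + Rux + IKK-16 (2, 0 and 0). Every sample of these last 3 groups was therefore at or below 3 counts, which is the limit used here for a gene not detected. Cxcl11 had 20 and 4 counts in DMEM (0.591 and 0.164 CPM) and 11, 77 and 19 counts in CM (0.612, 2.29 and 0.774 CPM). It had 0 counts in all 3 DMEM + Rux samples, which allows up to 0.139 CPM in the sample with the fewest counts, and at most 3 counts in any sample of CM + Rux, CM + Rux 2 h or CM + Rux + IKK-16. As for Cxcl10, the highest CM value of both genes was that of replicate 2.

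Cxcl16 was abundant and varied little between replicates. It stood at 396 and 324 CPM in DMEM and at 277, 328 and 288 CPM in DMEM + Rux. With conditioned medium it was 664, 702 and 675 CPM in CM, 664, 703 and 697 CPM in CM + Rux, 643, 627 and 659 CPM in CM + Rux + IKK-16, and 856 and 748 CPM in CM + Rux 2 h. All samples with conditioned medium were above all samples without it. By group mean the order was CM + Rux 2 h (802 ± 76.7 CPM, n = 2), CM + Rux (688 ± 20.9, n = 3), CM (680.3 ± 19.6, n = 3), CM + Rux + IKK-16 (643 ± 16.2, n = 3), DMEM (359.8 ± 50.8, n = 2) and DMEM + Rux (298 ± 26.6, n = 3). The CM + Rux and CM samples overlapped, and so did the DMEM and DMEM + Rux samples.

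Per kilobase of exon, which allows levels of different genes to be compared, Cxcl16 had mean levels of 98.5 CPM per kb in DMEM + Rux to 265 CPM per kb in CM + Rux 2 h. Cxcl10 ranged from 0.125 CPM per kb in DMEM + Rux to 7.27 CPM per kb in DMEM. In CM the mean levels were 225 CPM per kb for Cxcl16, 3.11 for Cxcl10, 0.323 for Cxcl11 and 0.172 for Cxcl9. Cxcl16 had the highest level of the members in each of the 6 groups.

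**Figure D2:**
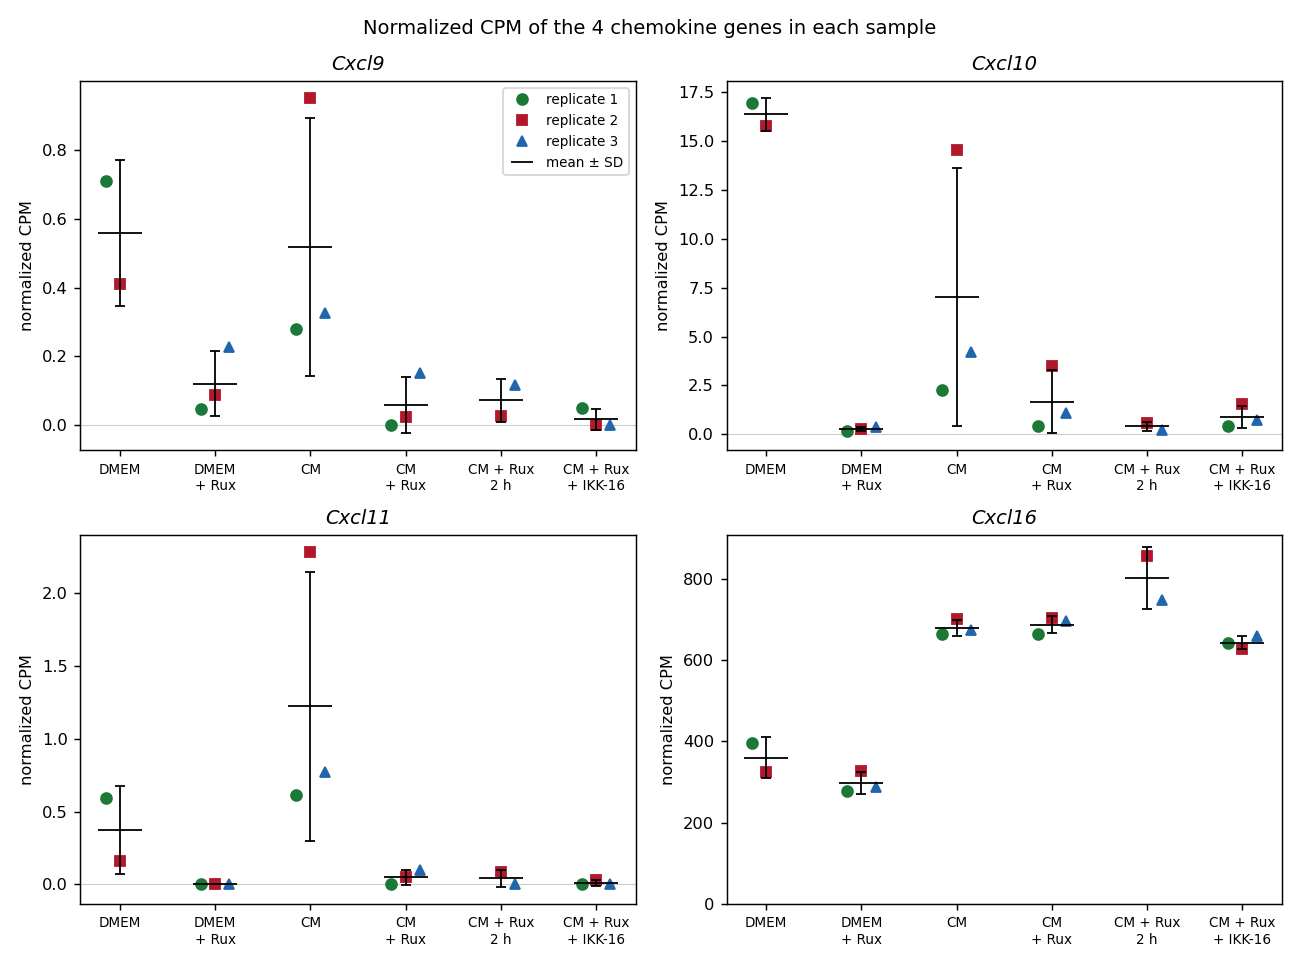
Normalized CPM (linear axes) of the 4 genes in each of the 16 samples, by group, with the replicate number as colour and marker and with black bars for the group mean ± SD. Cxcl10 is at 17.0 and 15.8 CPM in DMEM and below 0.4 CPM in DMEM + Rux, Cxcl9 and Cxcl11 are near 0 in all groups with ruxolitinib, and Cxcl16 is higher in the 4 groups with conditioned medium.

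Comparing CM with DMEM shows how the members differed with medium conditioned by 4T1 cells. The study grew 4T1 cells in medium with RPMI, so the base medium may differ as well as the soluble factors. The part of each was not tested. Cxcl16 rose 1.89-fold (log2 fold change 0.92 ± 0.10 SE, adjusted p = 3.1e-06, edgeR's quasi-likelihood test with Benjamini-Hochberg adjustment), and was called higher, as were 20.9% of the 12372 genes tested. A gene was called when its log2 fold change exceeded 0.5 in size with an adjusted p-value under 0.05. Cxcl10 was 2.27-fold lower in the fit (log2 fold change -1.18 ± 0.67 SE, adjusted p = 0.137) and was not called, while 24.1% of genes were called lower. The CM and DMEM samples of Cxcl10 did not overlap, but within replicate 1 it was 7.44-fold lower in CM and within replicate 2 only 1.08-fold lower. With the replicate number as a block its log2 fold change was -1.47 (adjusted p = 0.0116), and without CM replicate 2 it was -2.32 (adjusted p = 0.00861), so that both settings called it lower. In bulk samples, fewer cells of a type and less RNA per cell cannot be told apart. Relative to total counts, the scaling used here shifted the median gene by 0.31 on the log2 scale in this comparison. With total counts the log2 fold change was 0.61 for Cxcl16 (called higher) and -1.53 for Cxcl10 (called lower, adjusted p = 0.0467).

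The neighbouring genes could be fitted only with no filter on low counts, in which 24476 genes were tested. In that fit 11.9% of genes were called higher in CM than in DMEM and 13.2% lower. For Cxcl10 it gave a smaller adjusted p-value of edgeR than the main fit in every comparison, here 0.0212 against 0.137. Its calls of Cxcl9 and Cxcl11, here and below, therefore cannot be set equal to calls of the main fit. Cxcl11 was 3.21-fold higher in CM (log2 fold change 1.68 ± 0.61 SE, adjusted p = 0.0299). This call was lost without CM replicate 2 (0.83, adjusted p = 0.533), without DMEM replicate 2 (1.10, adjusted p = 0.376), with total counts (1.34, adjusted p = 0.0754) and with DESeq2 (1.70, adjusted p = 0.157). Here and below, leaving out a DMEM or 2 h sample leaves 1 sample in that group, which the fit assumes to vary like the other groups. Cxcl9 had a log2 fold change of -0.05 (95% interval -1.34 to 1.24), so that a difference of over 2-fold in either direction was not excluded at this depth.

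Comparing DMEM + Rux with DMEM shows how ruxolitinib changed the members without tumor factors. Cxcl10 fell 56.3-fold (log2 fold change -5.81 ± 0.89 SE, adjusted p = 0.00237), and was called lower, as were 0.97% of the genes tested. The DMEM + Rux samples, at 0.185 to 0.389 CPM, lay far below the DMEM samples at 15.8 and 17.0 CPM. Within replicates 1 and 2 the decrease was 91.8-fold and 58.8-fold. These folds rest on 4 and 12 counts in DMEM + Rux, near the limit of 3 counts. The ratio of pooled counts was 57.2 (95% interval 39.3 to 86.6, counting error only). The call held with each sample left out in turn, with adjusted p-values of 4.2e-04 to 0.0272. Cxcl16 had a log2 fold change of -0.27 (95% interval -0.48 to -0.07, adjusted p = 0.588), and its groups overlapped. In the fit with no filter, in which 0.735% of genes were called lower, Cxcl11 was called lower (adjusted p = 0.00204), and with 0 counts in all DMEM + Rux samples its mean was at least 2.72-fold lower than in DMEM, against a limit of 3 counts in the sample with the fewest counts. Without DMEM replicate 1, which held 20 of the 24 counts, the adjusted p-value was 0.770, with 1 DMEM sample left in the fit. Cxcl9 had a log2 fold change of -2.17 (adjusted p = 0.347) and was not called, although its groups did not overlap, and the ratio of pooled counts was 4.73 (95% interval 2.39 to 10.04, counting error only).

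Comparing CM + Rux with CM shows how ruxolitinib changed the members in the presence of tumor factors. Cxcl10 was 4.15-fold lower in the fit (log2 fold change -2.05 ± 0.68 SE, adjusted p = 0.118) and was not called, while 2.13% of genes were called lower. The groups overlapped, since CM + Rux replicate 2 (3.49 CPM) was above CM replicate 1 (2.28 CPM). Within the replicate numbers the samples did not cross: Cxcl10 was 5.29-fold, 4.17-fold and 3.93-fold lower with ruxolitinib in replicates 1, 2 and 3. With the replicate number as a block the log2 fold change was -2.05 (adjusted p = 0.0103) and Cxcl10 was called lower. It was also called without CM + Rux replicate 2 (-3.39, adjusted p = 0.0231) and with no filter on low counts (-2.05, adjusted p = 7.3e-04), while without CM replicate 2 the log2 fold change was the smallest of the samples left out, at -0.92 (adjusted p = 0.633).

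In the fit with no filter, in which 1.7% of genes were called lower, Cxcl9 and Cxcl11 were called lower with ruxolitinib in CM. The log2 fold change of Cxcl9 was -3.55 ± 0.81 SE (adjusted p = 0.00370), from 45 counts in CM and 4 in CM + Rux, a ratio of 14.5 for the pooled counts (95% interval 5.28 to 55.4). Without CM replicate 2, which held 32 of the 45 counts, it was not called (-2.70, adjusted p = 0.138). The log2 fold change of Cxcl11 was -4.80 ± 0.74 SE (adjusted p = 9.2e-06), from 107 counts in CM and 4 in CM + Rux, a ratio of 34.4 (95% interval 13.1 to 129). Cxcl11 was called with each sample left out in turn, with a log2 fold change of -3.93 without CM replicate 2. Fitted values of genes this low depend on the prior count of the fit, so the ratio of counts stands beside them. Cxcl16 had a log2 fold change of 0.02 with a 95% interval of -0.17 to 0.20, and the CM and CM + Rux samples overlapped.

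The effect of ruxolitinib on Cxcl10 was a log2 fold change of -5.81 in DMEM and -2.05 in CM. The difference between these effects was 3.76 ± 1.15 SE (95% interval 1.30 to 6.23, unadjusted p = 0.00561, adjusted p = 0.204), and was not called, while 0.412% of genes were called in either direction. With the replicate number as a block the difference was 4.04 (adjusted p = 0.0181) and was called. For Cxcl16 the difference was 0.29 (95% interval 0.01 to 0.57, adjusted p = 0.517), and for Cxcl9, with no filter, it was -1.38 (95% interval -3.69 to 0.93). None is given for Cxcl11, which had 0 counts in DMEM + Rux.

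Comparing CM + Rux with DMEM + Rux shows the change with conditioned medium when ruxolitinib was present in both groups. Cxcl16 rose 2.31-fold (log2 fold change 1.21 ± 0.09 SE, adjusted p = 4.4e-08), and within replicates 1, 2 and 3 it rose 2.39-fold, 2.14-fold and 2.42-fold. Both tested members were called higher, against 22.3% of the genes tested. Cxcl10 was 5.98-fold higher (log2 fold change 2.58 ± 0.93 SE, adjusted p = 0.0251), and the groups did not overlap, with 0.432 to 3.49 CPM against 0.185 to 0.389 CPM (4 to 12 counts per sample). This call was lost without CM + Rux replicate 2 (1.24, adjusted p = 0.303), without DMEM + Rux replicate 1 (2.42, adjusted p = 0.0628) and without DMEM + Rux replicate 2 (2.51, adjusted p = 0.0777). Here too the scaling shifted the median gene, by 0.30 on the log2 scale. With total counts the log2 fold change was 0.91 for Cxcl16 and 2.26 for Cxcl10, both called. Cxcl9, with 4 counts in CM + Rux and 12 in DMEM + Rux, had a log2 fold change of -1.43 in the fit with no filter (adjusted p = 0.294) and was not called, while 14.2% of genes were called lower in that fit.

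Comparing CM + Rux + IKK-16 with CM + Rux shows the change when the IKK inhibitor was added. Neither tested member was called by edgeR or DESeq2 or at an unadjusted p-value under 0.05, while 7.74% of genes were called in either direction. Cxcl10 had a log2 fold change of -0.99 (95% interval -2.64 to 0.67, adjusted p = 0.440) with overlapping groups. Its values were 1.05-fold, 2.28-fold and 1.47-fold lower within replicates 1, 2 and 3. With each sample left out in turn, its log2 fold change ranged from -1.62 to 0.35, so the direction was not stable. Cxcl16 had a log2 fold change of -0.10 (95% interval -0.28 to 0.09, adjusted p = 0.499), and although its 3 samples with IKK-16 (627 to 659 CPM) were all below the 3 without it (664 to 703 CPM), the interval leaves out a change beyond the fold threshold. Cxcl9 and Cxcl11 were at or below 3 counts in every sample of both groups, so that no difference was detectable at this depth.

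Against CM alone, the samples with both inhibitors had lower Cxcl10, with a log2 fold change of -3.04 ± 0.73 SE (adjusted p = 0.00884, 8.22-fold lower), where 6.13% of genes were called lower. Within replicates 1, 2 and 3 it was 5.53-fold, 9.52-fold and 5.76-fold lower. Without CM replicate 2 it was not called (-1.90, adjusted p = 0.0716), and with the block it was (-2.89, adjusted p = 6.3e-04). In the fit with no filter, in which 3.65% of genes were called lower, Cxcl9 (45 counts in CM and 2 with both inhibitors, adjusted p = 1.6e-04) and Cxcl11 (107 counts and 1 count, adjusted p = 1.9e-07) were called lower. The pooled count ratio was 31.3 for Cxcl9 (95% interval 8.16 to 266) and 149 for Cxcl11 (95% interval 26.1 to 5925). Cxcl16 had a log2 fold change of -0.08 (95% interval -0.27 to 0.10, adjusted p = 0.540). Since this comparison and the one of CM + Rux with CM share the CM samples, their values stand side by side and are not independent.

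Comparing CM + Rux 2 h with CM may mix ruxolitinib with treatment time, and the part of each was not tested. The samples with 2 h in their titles had the lowest mean Cxcl10 of the groups with conditioned medium. Against CM its log2 fold change was -3.98 ± 0.98 SE (adjusted p = 0.00500, 15.8-fold lower), where 13.3% of genes were called lower, and it was 25.1-fold and 17.9-fold lower within replicates 2 and 3. The 2 h samples held 21 and 4 counts of Cxcl10 in these replicates. Without CM replicate 2 the log2 fold change was -2.85 (adjusted p = 0.0181) and without the 2 h replicate 2, with 1 sample left at 2 h, it was -4.93 (adjusted p = 0.0368). Against CM + Rux it was -1.93 ± 1.04 SE (adjusted p = 0.159) and was not called, while 10.7% of genes were. With the replicate number as a block, this last log2 fold change was -2.19 (adjusted p = 0.0357) and was called, and within replicates 2 and 3 the values were 6.01-fold and 4.57-fold lower. Cxcl16 was higher in both 2 h samples (856 and 748 CPM) than in all CM and CM + Rux samples, with log2 fold changes of 0.24 against CM (adjusted p = 0.0598) and 0.22 against CM + Rux (adjusted p = 0.0847), neither of which was called. In the fit with no filter, in which 7.33% of genes were called lower than in CM, Cxcl9 (-3.13, adjusted p = 0.0115) and Cxcl11 (-4.44, adjusted p = 8.5e-05) were called lower, with pooled count ratios of 10.5 (95% interval 3.37 to 52.8) and 24.96 (95% interval 8.32 to 123). The call for Cxcl9 was lost without CM replicate 2 (-2.29, adjusted p = 0.144) and without the 2 h replicate 2 (-2.19, adjusted p = 0.291).

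**Figure D3:**
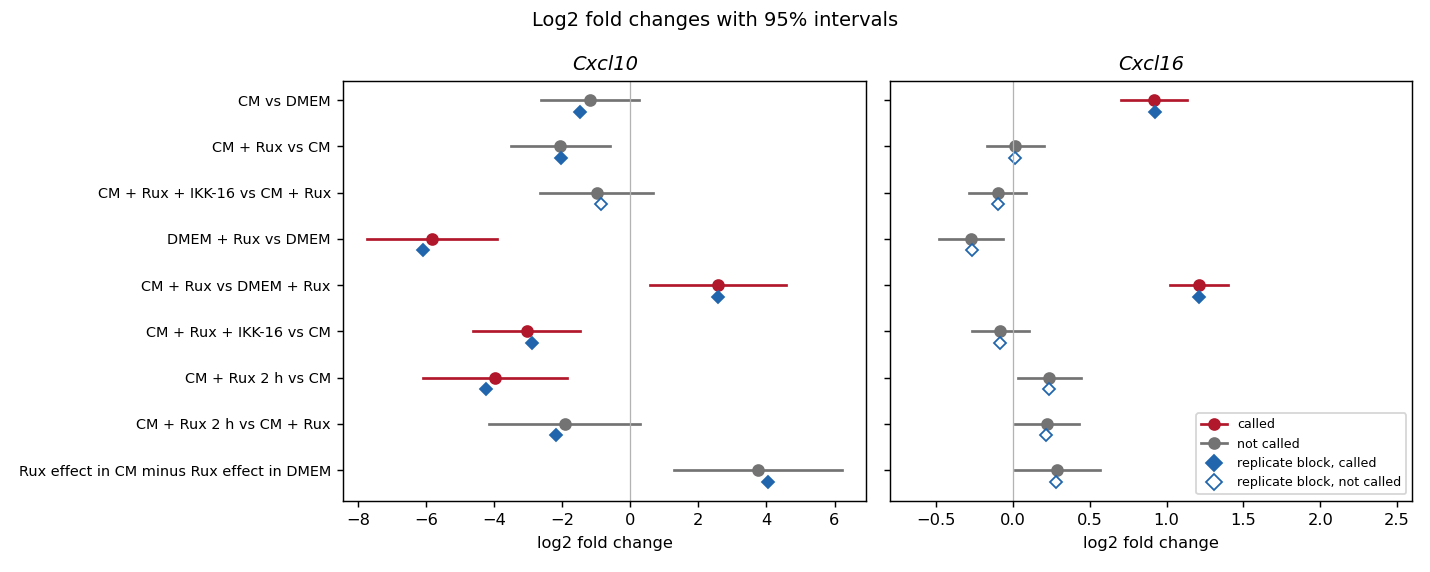
Log2 fold changes of Cxcl10 (left) and Cxcl16 (right) in 9 comparisons, as circles with 95% intervals (red where called, grey where not) and as diamonds for the fit with the replicate number as a block (filled where called). For Cxcl10 the 4 comparisons CM vs DMEM, CM + Rux vs CM, CM + Rux 2 h vs CM + Rux and the difference of the 2 ruxolitinib effects were called with the block and not without it, and for Cxcl16 no call differed between the fits.

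The receptors and processing enzymes of these chemokines were described from a list of 7 genes, of which 3 were tested. Cxcr3, the receptor of CXCL9, CXCL10 and CXCL11, was itself low in these cells, with group means of 2.11 ± 0.433 CPM in DMEM, 3.46 ± 1.10 in DMEM + Rux, 0.526 ± 0.387 in CM, 2.002 ± 0.248 in CM + Rux, 3.42 ± 1.28 in CM + Rux 2 h and 0.963 ± 0.144 in CM + Rux + IKK-16. It was lower in CM than in DMEM (log2 fold change -1.93, adjusted p = 0.00153) and higher in CM + Rux than in CM (1.86, adjusted p = 0.0161), where 1.2% of genes were called higher, although the second call was lost without CM replicate 2. Between CM + Rux + IKK-16 and CM + Rux it had a log2 fold change of -1.05 (adjusted p = 0.0667), which the block called lower (-1.08, adjusted p = 0.00613). The summed B cell markers, of which Pax5 was at 0 in all samples, were at 1.15 to 1.21 CPM in DMEM, 1.07 to 1.23 in DMEM + Rux, 0.122 to 0.267 in CM, 0.356 to 0.630 in CM + Rux, 0.467 to 0.635 in CM + Rux 2 h and 0.398 to 0.747 in CM + Rux + IKK-16, so that they were lowest in CM, as the mean of Cxcr3 was, and did not fall with IKK-16. The summed dendritic cell markers were at 4.45 to 7.01 CPM in CM, 7.28 to 11.1 in CM + Rux, 13.6 to 17.2 in CM + Rux 2 h and 3.61 to 5.23 in CM + Rux + IKK-16. Of these markers, Flt3, Xcr1, Clec9a and Siglech were at most 0.552 CPM in any sample. The sums with conditioned medium therefore rest mainly on Zbtb46 and Ccr7, which reached 12.3 and 8.82 CPM. These sums were higher in CM + Rux and CM + Rux 2 h than in the other groups with conditioned medium, as the means of Cxcr3 were, while in DMEM, at 1.51 to 2.28 CPM, they were below CM. The part of both lists in these results was not tested.

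Adam17, a protease that sheds membrane proteins, fell from 715 ± 10.4 CPM in DMEM to 387 ± 24.04 CPM in CM (log2 fold change -0.88, adjusted p = 1.3e-06), opposite in direction to Cxcl16. It was 490 ± 13.6 CPM in CM + Rux, with a log2 fold change of 0.34 against CM (adjusted p = 0.0253) that was below the fold threshold, and 667 ± 30.6 CPM in CM + Rux 2 h, where it was called higher than in CM (0.78, adjusted p = 1.2e-05). Adam10, the other shedding protease, lay between 144 and 164 CPM by group mean and was not called in any of the comparisons. Cxcr6, the receptor of CXCL16, the decoy receptors Ackr1 and Ackr3, and Dpp4, a protease that trims CXCR3 ligands, were at group means of at most 0.327 CPM and were not tested.

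Genes of the interferon and JAK-STAT input were counted from a list of 21, of which 19 were tested. The interferon genes Ifnb1 and Ifng themselves did not pass the filter. In CM against DMEM 9 genes rose and 3 fell, against 20.9% and 24.1% of all genes tested, and the median log2 fold change was 0.06 (over all genes tested the median was within 0.03 of 0 in each comparison). The largest rise was that of Socs3, an inhibitor of JAK signaling (7.54), and the largest fall that of Usp18, an interferon-induced inhibitor of interferon signaling (-1.02). With ruxolitinib, 6 of 19 were called lower in DMEM (median -0.19), against 0.97% of all genes, and 6 of 19 in CM (median -0.30), against 2.13%, with Usp18 the largest fall in each, at -2.89 and -3.25. Stat2, Irf7 and Irf9, named after their values were seen, were among those called lower in both of these comparisons. With IKK-16 added to CM + Rux 3 of 19 were called lower (median -0.22), against 3.66% of all genes, led by Socs1 at -1.56. In CM + Rux + IKK-16 against CM 10 were called lower (median -0.91), against 6.13% of all genes. In the 2 h samples against CM, 2 were called higher, led by Irf1 at 1.91, and 8 lower, against 14.6% and 13.3% of all genes.

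Genes of the NF-κB input were counted from 9 subunits, inhibitors and activators, all of them tested. In CM against DMEM 8 were called higher (median 1.76), against 20.9% of all genes, with the largest rise for Tnfaip3, an inhibitor of NF-κB signaling (3.02). In CM + Rux against CM 0 were called by edgeR and 0 by DESeq2, 3 were higher at an unadjusted p-value under 0.05, and 1 was called higher with the block, with a median of 0.30. In the edgeR fit 1.2% of all genes were called higher there, so 0 of 9 does not set this list apart from other genes. With IKK-16 added 4 were called lower (median -0.81, 6 with the block), against 3.66% of all genes, again led by Tnfaip3 (-1.02). In CM + Rux against DMEM + Rux, all 9 were called higher (median 2.50), against 22.3% of all genes. In the 2 h samples, 6 were called higher than in CM, led by Tnf at 1.45, against 14.6% of all genes.

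Other CXC chemokines, which include those that attract mainly neutrophils, were counted from a list of 11 genes, of which 7 were tested. All 7 were called higher in CM than in DMEM, against 20.9% of all genes, with a median log2 fold change of 5.33 and the largest rise for Cxcl3 (9.83, from 1.18 ± 0.749 to 1135 ± 289 CPM). With ruxolitinib 0 of 7 were called in DMEM and 0 of 7 in CM by edgeR and by DESeq2, with medians of -0.53 and -0.08. In the edgeR fit 0.97% and 2.13% of all genes were called lower, so 0 of 7 does not set this list apart from other genes. At an unadjusted p-value under 0.05, 2 of 7 were lower in DMEM and 1 in CM. With the replicate number as a block Ppbp, a platelet chemokine named after its values were seen, was called lower in CM + Rux than in CM (log2 fold change -0.69, adjusted p = 0.0130). With IKK-16 added to CM + Rux 2 were called lower, against 3.66% of all genes, the largest fall being that of Cxcl5 (-1.36). In the 2 h samples 5 of 7 were called lower than in CM, against 13.3% of all genes, led by Cxcl5 (-3.97), which was also the largest fall against CM + Rux (-3.62).

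Beside these, a list of 26 interferon targets, all tested, had 24 called lower in DMEM + Rux than in DMEM (median log2 fold change -3.28), against 0.97% of all genes. In CM + Rux against CM 15 were called lower (median -1.64, 20 with the block and 14 without CM replicate 2), against 2.13% of all genes. In CM against DMEM 3 were called higher and 11 lower (median -0.62), against 20.9% and 24.1% of all genes. In CM + Rux against DMEM + Rux 9 were higher and 6 lower (median 0.15), against 22.3% and 25% of all genes. The difference of the 2 ruxolitinib effects was called for 2 of 26, against 0.412% of all genes in either direction, and, with the block, for 9. The block also called more of all genes in this difference, as given in the last section. In CM + Rux + IKK-16 against CM 24 were lower (median -2.22), against 6.13% of all genes, and 3 were lower when IKK-16 was added to CM + Rux (6 with the block), against 3.66%. In the 2 h samples 18 were lower and 1 was higher than in CM (median -1.60), against 13.3% and 14.6% of all genes. Against CM + Rux 7 were higher and 2 lower at 2 h (median 0.36, 9 and 6 with the block), against 12.6% and 10.7% of all genes, while Cxcl10 had a log2 fold change of -1.93 there. Their summed level was 1444 and 2137 CPM in the DMEM samples, 1243, 1823 and 1255 CPM in CM replicates 1 to 3, 748 to 851 CPM in CM + Rux, 922 and 1104 CPM in CM + Rux 2 h, 488 to 531 CPM with both inhibitors and 340 to 361 CPM in DMEM + Rux. As for Cxcl10, replicate 2 was the highest CM sample. The log2 fold changes of Cxcl16 with ruxolitinib were -0.27 in DMEM and 0.02 in CM.

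**Figure D4:**
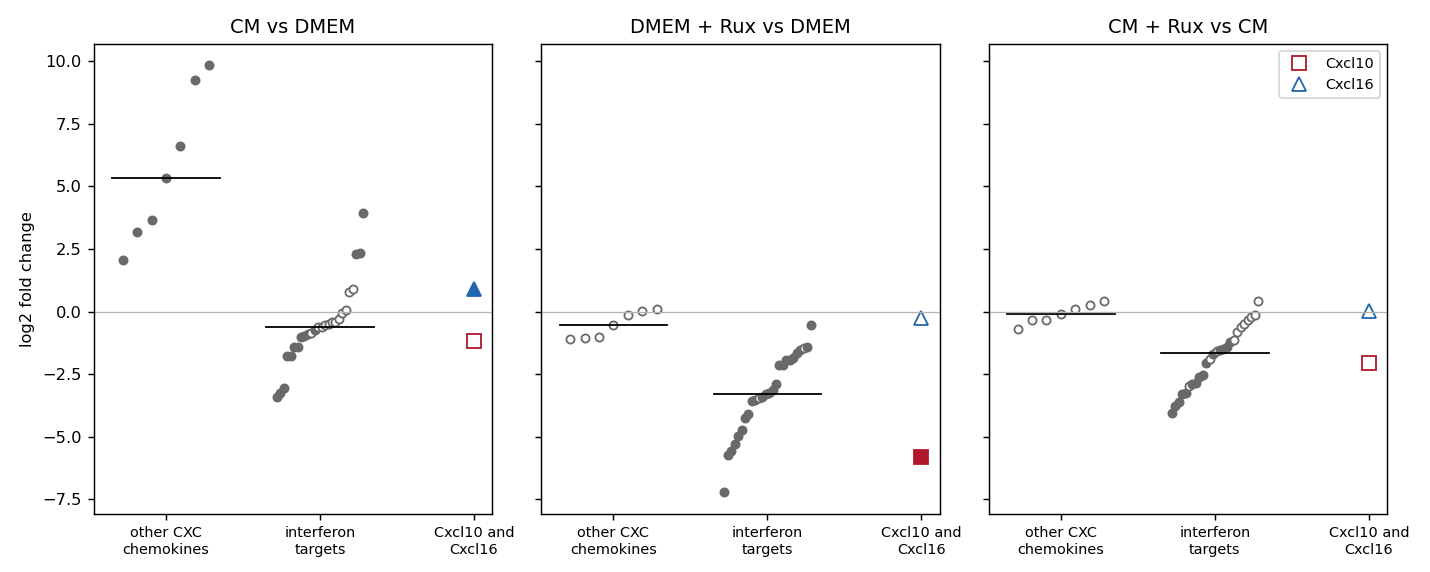
Log2 fold changes of each tested gene of the other CXC chemokines (7 genes) and of the interferon targets (26 genes) beside Cxcl10 (square) and Cxcl16 (triangle) in 3 comparisons, with filled symbols for called genes and black lines for list medians. Cxcl10 lies within the range of the interferon targets in all 3 comparisons (-5.81 in DMEM + Rux vs DMEM), and Cxcl16 (0.92 in CM vs DMEM) lies below all 7 other CXC chemokines there.

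Over all 16 samples, the genes whose log2 CPM followed each member most closely differed between the members. For Cxcl10 they included Ifit1 (Pearson r = 0.975), Rsad2 (0.971), Ifit1bl2 (0.952) and Ifih1 (0.935). For Cxcl9 they were Ifi47 (0.880), Usp18 (0.880), Parp12 (0.878), Tgtp2 (0.848) and Ddx58 (0.842), and for Cxcl11 Trim30a (0.908), Tap1 (0.903), Ddx24 (0.896), Zbp1 (0.891) and Rtp4 (0.889). For Cxcl16 they were Skil (0.991), Zfp819 (0.990), Pik3r5 (0.985), Zfp263 (0.985) and Fam104a (0.985). Among the members, r was 0.697 between Cxcl9 and Cxcl10, 0.805 between Cxcl9 and Cxcl11, and 0.811 between Cxcl10 and Cxcl11, while Cxcl16 had r of -0.23 to 0.20 with the other members. These values are descriptions over samples that share groups, libraries and depth, and carry no test.

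All 8 macrophage markers exceeded 1 CPM in each group, with summed levels of 40148 to 57183 CPM. Markers of T and NK cells, the cells that carry CXCR3, had summed levels of 4.81 to 13.1 CPM, of which only Cd4 exceeded 1 CPM, and Cd3g, Cd8a, Trac, Ncr1 and Gzma were at 0 in all samples. In CM against DMEM, where Cxcl16 rose, the summed markers of epithelial cells were 0.733 to 1.45 CPM against 0 to 0.118 CPM (Krt14 at 0), those of neutrophils 1.72 to 3.24 CPM against 0.236 to 0.287 CPM (Ly6g and Elane at 0), and those of dendritic cells 4.45 to 7.01 CPM against 1.51 to 2.28 CPM. Of the neutrophil markers, S100a8 reached 2.47 CPM, while S100a9, Ly6g, Mpo, Elane, Ngp and Camp were at most 0.712 CPM in any sample. Of the dendritic cell markers, Flt3, Xcr1, Clec9a and Siglech were at most 0.552 CPM in any sample. Fibroblast markers were at 5.74 to 20.9 CPM over all groups, without a gap between CM and DMEM. The part of these markers in the results was not tested.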

How the data were processed

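The authors trimmed reads with Trimmomatic 0.33, aligned them to GRCm38 with HISAT2 2.1.0 and counted reverse-stranded fragments per gene (Ensembl 100) with featureCounts 1.6.2, leaving out fragments with a mapping quality under 10, several alignments or several genes. The deposited values are raw counts per gene, and a length per gene that the authors' table gives was used for CPM per kb. Symbols came from GENCODE M21, which matched 55141 of 55487 identifiers. Counts were scaled by relative log expression, the 12372 genes with over 1 CPM in 2 or more samples were tested, and 1 model of 16 samples in 6 groups was fitted with edgeR 4.0.16 (quasi-likelihood test, limma 3.58.1, R 4.3.3), with Benjamini-Hochberg adjustment over all genes tested. Thresholds, scaling and filter follow the study's methods, which also name a different test in the section on statistics. The fit was also run on simulated counts, only for CM + Rux against CM and for genes passing the filter. Their spread followed the general trend over genes, without pairs. That run does not bear on the fit with no filter or on the spread of a single gene. Tables were made in Python 3.11.15 (numpy 2.4.6, pandas 2.3.3) and plots with matplotlib 3.10.9.

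Samples were grouped by their titles. The members and gene lists were chosen with earlier results of these data known. Named genes were the 4 members, every tested receptor or protease gene, the largest rise and fall among the called genes of the input and chemokine lists, and the 5 genes most alike to each member (log2 CPM, prior count 2); 1 gene of these lists is not reported here by name. Alternatives were TMM, total counts, no filter, filterByExpr, the replicate number as a block, only the groups compared, DESeq2 1.42.0 and each sample left out. Since Cxcl9 and Cxcl11 did not pass the filter, their values come from the fit with no filter, and its combinations with the other alternatives were added after seeing the data. Replicate numbers in the titles were used to pair the samples, though the labels do not say what they stand for. In the 4 comparisons with 3 pairs, every pair's correlation of deviations from the group means was over 0.1 (0.172 to 0.631). With 2 pairs the correlations were 0.204 to 0.351. Between CM + Rux 2 h and DMEM, which were not compared, the samples numbered 2 had a correlation of -3.9e-04. Replicates differed by more than sampling noise (chi-square per degree of freedom 14.2 to 54.4), and none were copies. Intervals of pooled count ratios are exact, at 95%, and cover counting error only, as does the limit of 3 counts. At 3 samples against 3, or 3 against 2, a permutation test of 1 gene could not go below p = 0.1, so none is given.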

Additional observations from a re-analysis of the deposited data

How the results depend on the processing

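No call of Cxcl16 changed under any alternative tried, and no member reversed its direction with a call. Cxcl10 in CM against DMEM, not called, became called lower with no filter (-1.17), total counts (-1.53) and the replicate block (-1.47). In CM + Rux against CM it became called with no filter (-2.05) and the block (-2.05), in CM + Rux 2 h against CM + Rux with no filter (-1.93) and the block (-2.19), and in the difference of ruxolitinib effects with no filter (3.76) and the block (4.04). Beside fits with no filter, Cxcl9 in DMEM + Rux against DMEM became called with only the groups compared (-2.18, adjusted p = 0.0294), and Cxcl11 in CM against DMEM lost its call with total counts (1.34) and DESeq2 (1.70). The block changed no other call of a member.

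With each sample left out (a group of 2 then has 1 sample, assumed to vary like the others), the log2 fold changes of Cxcl10 ranged from -2.32 to -0.79 (CM vs DMEM), -3.39 to -0.92 (CM + Rux vs CM), 1.24 to 3.06 (CM + Rux vs DMEM + Rux) and -3.67 to -1.90 (CM + Rux + IKK-16 vs CM). Those of Cxcl9 ranged from -5.04 to -2.70 (CM + Rux vs CM) and -4.12 to -2.19 (CM + Rux 2 h vs CM, -2.29 without CM replicate 2), and those of Cxcl11 from 0.83 to 2.93 (CM vs DMEM, 1.10 without DMEM replicate 2) and -7.20 to -5.34 (DMEM + Rux vs DMEM). The 412 genes called in CM + Rux against CM became 685 with no filter, 745 with the block, 243 when CM + Rux replicate 1 was left out and 258 when CM replicate 2 was. The 51 called in the difference of ruxolitinib effects became 349 with no filter, 90 with total counts, 444 with the block, 234 with DESeq2 and 17 to 114 with a sample left out. The cause was not tested. Counts of at most 32 (Cxcl9) and 77 (Cxcl11) per sample limit what can be seen of these genes.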
